A study of Pan troglodytes and Macaca mulatta with 12 samples.

Results

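The genes described here lie in 5 stretches of chromosome 19 known as the KRAB zinc finger gene clusters. A gene was a member when all of its listed exons fell on chromosome 19 inside one of the ranges 11.45 to 12.6 Mb (cluster 1), 19.5 to 24.3 Mb (cluster 2), 49 to 49.7 Mb (cluster 3), 57.1 to 58.7 Mb (cluster 4) or 61.3 to 63.81 Mb (cluster 5), in the coordinates of the deposited files. This gave 136 of the 16903 genes with at least 1 count, namely 23, 18, 17, 17 and 61 in clusters 1 to 5. Another 946 chromosome 19 genes outside the clusters served as the comparison. The 2 groups were measured by RNA sequencing of lymphoblastoid cell lines, grown from immortalised B lymphocytes: 6 lines from chimpanzees (Pan troglodytes) and 6 from rhesus macaques (Macaca mulatta), 1 library per individual, both sexes in each group. No treatment, genetic change or age is given for any line, and all 12 were grown in the same serum-supplemented medium. Library totals ran from 1434241 to 4751954 counts.

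Zinc finger proteins of the KRAB class bind DNA through an array of C2H2 fingers and recruit, through the KRAB domain, a corepressor that lays down repressive chromatin. Many bind transposable elements. Their genes multiplied by tandem duplication during primate evolution, so neighbours in a cluster are often close copies of each other, and the finger array of such a gene is usually encoded by a single long exon. Other kinds of genes lie within and at the edges of the same stretches.

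The files give gene identifiers without names, and 0 of the identifiers matched the table of symbols, so the functions of single members and the B cell markers of the lines were not checked. Genes are therefore referred to by the position of their first listed base in Mb on chromosome 19. Positions are in the build of the files, its name not given in the sources used here. The listed exons do bear on the label. The longest exon of the 71 members with enough counts for testing had a median of 1866 bases, against 398 bases in 567 tested genes of the rest of chromosome 19 and 729 bases in 8802 tested genes of other chromosomes. An exon of at least 1 kb was present in 55 of the 71 (77.5%), in 22.6% of the other chromosome 19 genes and in 39.4% of genes elsewhere. All 10 tested genes of cluster 3 had one, as did 8 of 9 in cluster 4, 27 of 35 in cluster 5, 5 of 8 in cluster 2 and 5 of 9 in cluster 1. The single exon with most counts held a median of 91.3% of a member's counts, against 42.9% in other chromosome 19 genes. Most member levels below are thus, in effect, the level of 1 exon.

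Members were expressed at low levels. Levels are given as CPM, counts scaled to a common library size, and the median over tested members of the mean CPM was 14.5, against 64.7 in other chromosome 19 genes. Per kb of listed exon, the medians were 7.72 CPM per kb in the clusters, 56.0 in other chromosome 19 genes and 27.3 on other chromosomes. Members with an exon of at least 1 kb stood at a median of 6.13 CPM per kb, and the 16 without one at 69.6. The highest per length was a single-exon gene of 122 listed bases at 63.598 Mb, with 1119 CPM per kb in chimpanzee and 1966 in rhesus macaque. Next came the gene at 63.751 Mb, with 377 and 448 CPM per kb. The lowest tested member per length, at 49.456 Mb, had 0.344 CPM per kb in chimpanzee and 2.07 in rhesus macaque. Counts were concentrated in few members. The gene at 57.397 Mb alone held 20.8% of all counts in the 136 genes, and the 6 members with most counts held 60.3%.

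The first comparison asks which members differ in expression between chimpanzee and rhesus macaque lines. Of 71 tested members, 9 were higher and 22 lower in chimpanzee, while 40 did not pass (edgeR quasi-likelihood test, adjusted p under 0.05 over all 9440 tested genes). Over all tested genes, 24.7% were higher and 23.6% lower, together 48.3%, so the 43.7% of members called lies near that background. The median log2 fold change, chimpanzee over rhesus macaque, was -0.25 in members (quartiles -0.80 and 0.43), 0.04 over all tested genes and -0.63 over the other chromosome 19 genes, of which 57 were higher and 261 lower (10.1% and 46.0%). The members' median thus lay between that of the rest of the chromosome and that of all genes. In bulk RNA, fewer cells of a type and less RNA per cell cannot be told apart.

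The direction of these counts depended on the scale. When libraries were scaled on the other chromosome 19 genes in place of all genes, the median of all genes moved by 0.62, and 20 members were higher and 10 lower, with a median of 0.39. On that scale 54.9% of all tested genes were called in either direction, and their median was 0.66, above that of the members. The gap between the members' median and that of the other chromosome 19 genes was 0.38 with the first scale and 0.44 with the second. Without the exon with most counts of each gene, 20 members could be tested. Of these, 1 was higher and 9 were lower, the median was -0.56 and the gap was 0.06. The whole split, member by member, is shown in the plot of log2 fold changes in chromosome order.

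**Figure D1:**
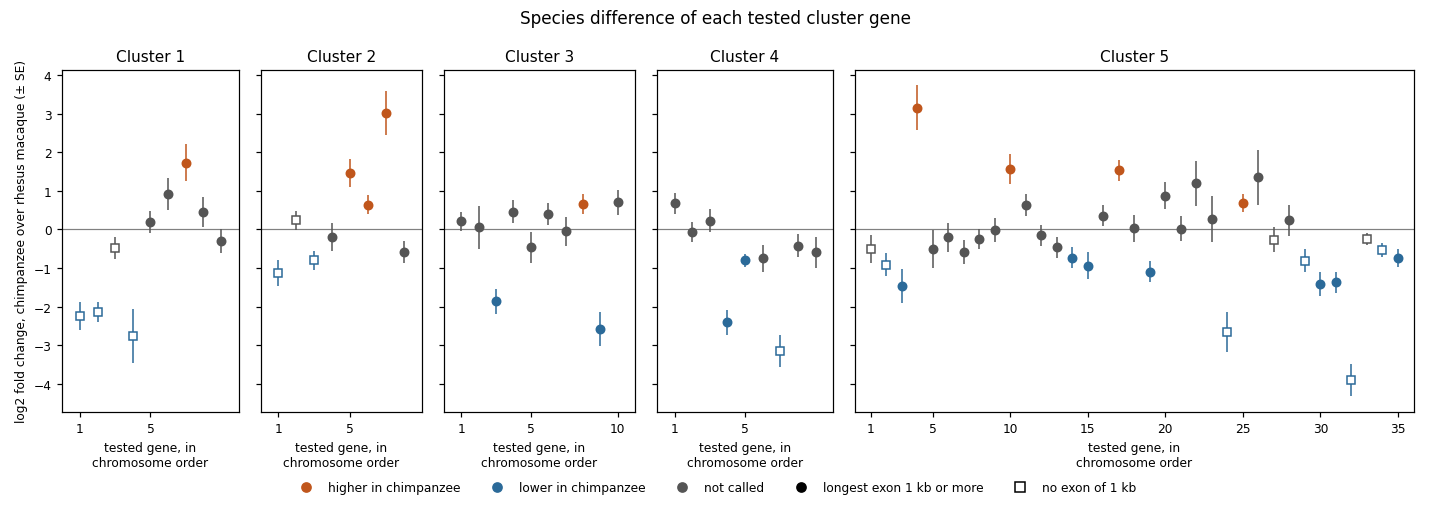
Log2 fold change (chimpanzee over rhesus macaque, vertical axis, bars are standard errors) of the 71 tested cluster genes in chromosome order within each of the 5 clusters. Orange marks genes called higher in chimpanzee, blue genes called lower and grey genes not called; filled circles have a listed exon of at least 1 kb and open squares do not. On this scale no open square is orange (1 gene without a long exon was called higher when scaled on other chromosome 19 genes), and the open squares stand mostly at the edges of clusters 1, 2 and 5.

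By cluster, cluster 1 had 1 member higher and 3 lower of 9 tested, cluster 2 had 3 higher and 2 lower of 8, cluster 3 had 1 higher and 2 lower of 10, cluster 4 had 0 higher and 3 lower of 9, and cluster 5 had 4 higher and 12 lower of 35. Median log2 fold changes were -0.30, 0.02, 0.13, -0.59 and -0.25 in clusters 1 to 5. All 6 libraries of one species lay above all 6 of the other for 15 tested members, 2 with chimpanzee above and 13 with chimpanzee below. Over all tested genes the shares are 13.3% above and 13.8% below, and the tested members' are 2.82% and 18.3%. Among the 65 untested members the groups were apart in 4 with chimpanzee above and 3 with chimpanzee below. Among all 7463 untested genes they were apart in 326 with chimpanzee above and 325 with chimpanzee below, so the members lie near that background. A stricter test, against a 2-fold difference (glmTreat), was passed by 3 members that were higher and 9 that were lower, 16.9% of members together, where 8.77% of all tested genes were higher and 8.56% lower. Leaving out each library in turn kept 24 of the 31 called members in every one of the 12 fits, 6 of them higher and 18 lower, and turned no direction.

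The length of the longest exon divided the members. None of the 16 tested members without an exon of 1 kb was higher in chimpanzee, 11 were lower and 5 did not pass, with a median log2 fold change of -0.86. Of the 55 members with such an exon, 9 were higher, 11 lower and 35 not called, with a median of 0.01. On the scale set by the other chromosome 19 genes, 1 was higher and 6 lower without a long exon (median -0.30), and 19 were higher and 4 lower with one (median 0.64). The median of all tested genes on that scale was 0.66, so the members with a long exon lay near it. Of the 567 other chromosome 19 genes, 128 were then higher and 140 lower. On the first scale, 12.5% of the other chromosome 19 genes with a long exon were higher and 47.7% lower, and 9.34% and 45.6% of those without one. On other chromosomes the shares were 30.2% and 16.7% with a long exon and 22.9% and 25.5% without. The same split of the other chromosome 19 genes gave medians of -0.64 without and -0.62 with an exon of 1 kb, and on other chromosomes -0.03 and 0.25. Members with a long exon thus stood 0.63 above the long-exon genes of the rest of the chromosome and 0.23 below those of other chromosomes. The split was made after the values were seen and was not tested. It goes with level, since the members without a long exon had a median of 40.4 CPM and those with one 12.5 CPM. Among other chromosome 19 genes, medians were -0.87 under 10 CPM, -0.61 from 10 to 30 CPM and -0.60 from 30 CPM. Among members in the same bands they were -0.46, -0.04 and -0.64. The part of level in the split was not tested.

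**Figure D2:**
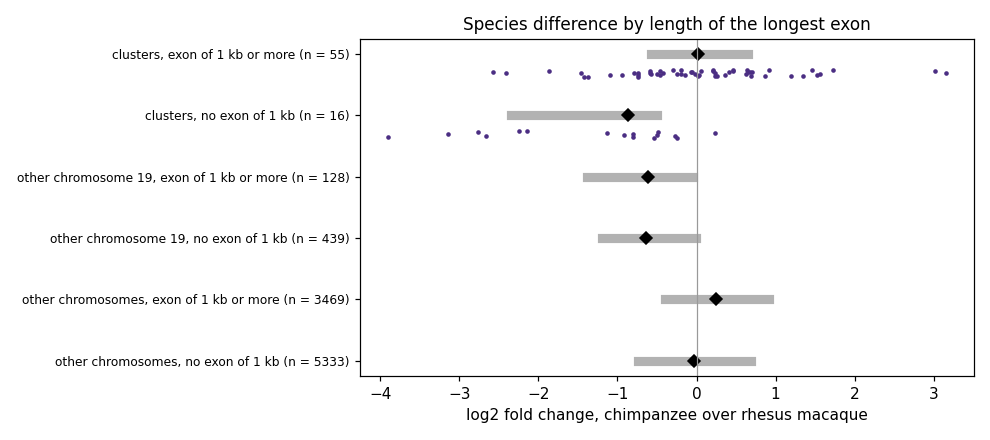
Log2 fold change (chimpanzee over rhesus macaque, horizontal axis) of tested genes by length of the longest listed exon, for the clusters, the rest of chromosome 19 and other chromosomes. Diamonds are medians, grey bars run between the quartiles and small points are single cluster genes; the cluster genes with a long exon centre on 0.01 and those without on -0.86.

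Stretches within clusters are described below as chosen after the values were seen, with no test of the stretch itself. In cluster 1 the first 4 tested genes, from 11455246 to 11549494, had no exon of 1 kb, and 3 of them were lower in chimpanzee. The gene at 11.455 Mb (11455246 to 11477654) had 4.19, 16.1 and 23.8 CPM as lowest, median and highest chimpanzee library and 40.2, 84.3 and 100 CPM in rhesus macaque. Its means were 15.4 ± 6.71 and 74.5 ± 26.1 CPM (SD, n = 6 each) (log2 fold change -2.24, standard error 0.36, edgeR adjusted p = 0.000159). Every chimpanzee library was below every rhesus macaque library, and the lowest chimpanzee library was replicate 1.

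The next gene, at 11.479 Mb (11479272 to 11500952), behaved alike, with 10.5, 21.2 and 27.8 CPM in chimpanzee and 57.9, 99.6 and 111 CPM in rhesus macaque (log2 fold change -2.14, standard error 0.25, edgeR adjusted p = 1.3e-05). The groups did not overlap. At 11.548 Mb the rhesus macaque lines ranged from 6.71 to 264 CPM and the highest chimpanzee line stood at 14.1 CPM, so the groups overlapped. Its log2 fold change was -2.76 (edgeR adjusted p = 0.00465), and -1.68 without rhesus macaque replicate 2, the library at 264 CPM. The 5 tested genes that follow, from 11569327 to 12500510, all held a long exon, and 1 of them was called. That gene, at 12.104 Mb (12104453 to 12105800, 1 exon of 1348 bases), was higher in chimpanzee at 8.04 ± 4.54 against 2.35 ± 1.39 CPM (SD, n = 6 each) (log2 fold change 1.73, standard error 0.48, edgeR adjusted p = 0.00842).

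Cluster 2 showed the same order along the chromosome. Its first 3 tested genes, from 19598352 to 19635479, had no long exon, and 2 of them were the most abundant of the cluster. The gene at 19.601 Mb (19601288 to 19614428, 19 exons) had 304 ± 93.9 CPM in chimpanzee against 259 ± 68.8 CPM (SD, n = 6 each) and was not called (log2 fold change 0.24, edgeR adjusted p = 0.439). Both neighbours were lower in chimpanzee. The gene at 19.598 Mb had 4.19, 10.7 and 17.5 CPM in chimpanzee and 18.0, 20.4 and 38.5 CPM in rhesus macaque (log2 fold change -1.13, standard error 0.34, edgeR adjusted p = 0.0147), with no overlap. The gene at 19.617 Mb (19617009 to 19635479, 21 exons) had 105, 140 and 284 CPM in chimpanzee and 263, 306 and 320 CPM in rhesus macaque (log2 fold change -0.80, edgeR adjusted p = 0.0145). Its groups overlapped through chimpanzee replicate 5, at 284 CPM. On the scale set by the other chromosome 19 genes neither neighbour passed (log2 fold changes -0.57 and -0.26, edgeR adjusted p = 0.139 and 0.311), while the gene at 19.601 Mb was called higher (0.84, edgeR adjusted p = 0.0015). With males only the gene at 19.617 Mb did not pass either (-0.46, edgeR adjusted p = 0.351).

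The other 5 tested genes of cluster 2 spread from 19766361 to 23661857, all with a long exon, and 3 were higher in chimpanzee and 0 lower. The largest difference was in ENSG00000197013 (21505231 to 21512919, 2 exons, the longest of 1998 bases). Its chimpanzee libraries held 4.84, 7.55 and 11.2 CPM and its rhesus macaque libraries 0, 0.857 and 2.49 CPM, which do not overlap. The species differed by a log2 fold change of 3.01 (standard error 0.57, edgeR adjusted p = 0.000644), from 123 and 15 counts in all. This gene passed the filter on low counts through its chimpanzee libraries alone, so its lack of overlap is partly set by the filter. The gene at 19.863 Mb was higher at 11.3 ± 4.95 against 3.99 ± 1.54 CPM (SD, n = 6 each; log2 fold change 1.46, edgeR adjusted p = 0.00425). The gene at 21.266 Mb, with 1 exon of 3579 bases, passed at 12.7 ± 2.97 against 8.12 ± 1.22 CPM (edgeR adjusted p = 0.0444), but lost its call in 10 of the 12 fits that left out 1 library.

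Cluster 3 held 10 tested genes, all with a long exon, and 7 of them were not called. Its most abundant gene, at 49.109 Mb (49108623 to 49131251), had 25.5, 35.0 and 46.7 CPM in chimpanzee and 23.2, 28.5 and 52.6 CPM in rhesus macaque (log2 fold change 0.21, standard error 0.24, edgeR adjusted p = 0.5), with overlapping groups. The second, at 49.409 Mb (49408524 to 49433260), had 19.1, 27.2 and 29.3 CPM in chimpanzee and 9.47, 15.2 and 23.5 CPM in rhesus macaque. It passed narrowly (log2 fold change 0.65, edgeR adjusted p = 0.0495), and 9 of the 12 fits without 1 library did not call it, nor did the fits with RLE size factors, with no filter on low counts, with males only or with sex as a term (edgeR adjusted p = 0.0551, 0.0956, 0.124 and 0.0642).

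In cluster 3, 2 genes were lower in chimpanzee with no overlap. The gene at 49.221 Mb (49221345 to 49229100, 2 exons) had 2.25, 4.47 and 6.28 CPM in chimpanzee and 10.4, 16.8 and 22.4 CPM in rhesus macaque (log2 fold change -1.86, standard error 0.32, edgeR adjusted p = 0.000299). The gene at 49.456 Mb (49455817 to 49471308, 5 exons) had 0, 1.11 and 1.54 CPM in chimpanzee and 4.85, 5.27 and 7.90 CPM in rhesus macaque (log2 fold change -2.58, standard error 0.43, edgeR adjusted p = 0.000248). The second rests on 16 chimpanzee and 105 rhesus macaque counts. It passed the filter on low counts through its rhesus macaque libraries alone, so its lack of overlap is partly set by the filter. The gene at 49.221 Mb also needed its rhesus macaque libraries to pass that filter.

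In cluster 4 no member was higher in chimpanzee and 3 of 9 were lower, each with no overlap between the species. By far the most abundant member of any cluster was the gene at 57.397 Mb (57397009 to 57422499, 14 exons). It had 397, 531 and 602 CPM in chimpanzee and 732, 966 and 1106 CPM in rhesus macaque (log2 fold change -0.79, standard error 0.17, edgeR adjusted p = 0.00143). It held 78.8% of the counts of its cluster, and it did not pass on the scale set by the other chromosome 19 genes (log2 fold change -0.17, edgeR adjusted p = 0.356). Its neighbour at 57.309 Mb (57309466 to 57335003), with an exon of 2624 bases, had 7.13 CPM in the lowest, 10.4 CPM in the median and 13 CPM in the highest chimpanzee library, and 26.9, 47.9 and 105 CPM in rhesus macaque (log2 fold change -2.41, standard error 0.32, edgeR adjusted p = 3.92e-05).

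The largest difference of cluster 4 was in ENSG00000167555 (57593432 to 57633476, 3 exons). It had 0, 1.25 and 1.64 CPM in chimpanzee and 6.92, 9.92 and 16.6 CPM in rhesus macaque (log2 fold change -3.14, standard error 0.41, edgeR adjusted p = 3.05e-05). All 6 chimpanzee libraries together held 20 of its counts, and 1 exon carried 98.0% of the total. This gene passed the filter on low counts through its rhesus macaque libraries alone, so its lack of overlap is partly set by the filter. The gene at 58.262 Mb (58261679 to 58298499), second in level, had 62.4 ± 18.7 and 83.5 ± 33.4 CPM (SD, n = 6 each) in chimpanzee and rhesus macaque and was not called (log2 fold change -0.42, edgeR adjusted p = 0.254).

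Cluster 5, the largest, holds the last listed exon of the chromosome. The 7 tested genes at that end, from 63597861 to 63776754, had negative log2 fold changes throughout and 6 were called lower in chimpanzee. Among the other 28 tested genes of the cluster, 4 were higher, 6 lower and 18 not called, with a median of -0.08. A run of 4 tested genes from 63597861 to 63714109 were all lower. The last of them, ENSG00000083807 (63701516 to 63714109, 7 exons), had the largest difference of any member towards rhesus macaque. It had 0.751, 2.92 and 4.88 CPM in chimpanzee and 26.4, 42.2 and 66.2 CPM in rhesus macaque (log2 fold change -3.90, standard error 0.42, edgeR adjusted p = 5.77e-06). The species did not overlap, and the lowest rhesus macaque line lay far above the highest chimpanzee line. All chimpanzee libraries together held 47 of its counts. This gene passed the filter on low counts through its rhesus macaque libraries, so its lack of overlap is partly set by the filter.

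At 63.612 Mb (63611875 to 63657001) the libraries held 8.26, 15.1 and 17 CPM in chimpanzee and 17.7, 34.8 and 60.3 CPM in rhesus macaque (log2 fold change -1.42, standard error 0.30, edgeR adjusted p = 0.0016). These groups only just failed to overlap, and the call was lost on the scale set by the other chromosome 19 genes (-0.76, edgeR adjusted p = 0.0648) and with males only (-1.20, edgeR adjusted p = 0.0769). At 63.68 Mb (63679607 to 63684403) the means were 37.8 ± 10.6 and 98.2 ± 29.9 CPM, with overlapping libraries (SD, n = 6 each; log2 fold change -1.37, edgeR adjusted p = 0.000708). The single-exon gene at 63.598 Mb, of highest level per length, had 137 ± 47.7 and 240 ± 87.5 CPM (SD, n = 6 each; log2 fold change -0.81, edgeR adjusted p = 0.0349), a call lost in 7 of the 12 fits without 1 library.

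The most abundant gene of cluster 5, at 63.751 Mb (63750555 to 63753463, 8 exons), was the exception at this end. It had 258, 359 and 435 CPM in chimpanzee and 357, 407 and 473 CPM in rhesus macaque, overlapping ranges, and did not pass (log2 fold change -0.25, standard error 0.17, edgeR adjusted p = 0.236). Its neighbour at 63.755 Mb (63754746 to 63758298) had 155, 224 and 272 CPM in chimpanzee and 281, 308 and 455 CPM in rhesus macaque, with no overlap (log2 fold change -0.54, edgeR adjusted p = 0.0232). That call was lost with males only (edgeR adjusted p = 0.146), without the strongest exon (edgeR adjusted p = 0.0568) and without chimpanzee replicate 1 and rhesus macaque replicates 5 and 6 together (log2 fold change -0.48, edgeR adjusted p = 0.0553). On the scale set by the other chromosome 19 genes, the log2 fold changes of these 2 genes and of the gene at 58.262 Mb turned to 0.34, 0.04 and 0.14.

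Farther from the end, the gene at 63.289 Mb (63289353 to 63301428, 6 exons) had 3.00, 9.04 and 14.1 CPM in chimpanzee and 16.5, 43.1 and 114 CPM in rhesus macaque (log2 fold change -2.66, standard error 0.52, edgeR adjusted p = 0.000796). Its rhesus macaque lines were spread widely but all lay above the chimpanzee lines. The gene needed its rhesus macaque libraries to pass the filter on low counts, so its lack of overlap is partly set by the filter. In the dense middle of the cluster, 16 tested genes from 62483665 to 62983796 all had a long exon. Of these, 2 were higher, 3 lower and 11 not called, with a median of -0.08. ENSG00000121417 (62836999 to 62845947, 3 exons, the longest of 2064 bases) was higher in chimpanzee, with 33.8, 45.9 and 79.5 CPM against 12.2, 16.9 and 21.7 CPM. This is the other tested member in which every chimpanzee line lay above every rhesus macaque line (log2 fold change 1.53, standard error 0.26, edgeR adjusted p = 0.000293).

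The largest difference towards chimpanzee in any cluster was at 61.742 Mb (61742129 to 61759981, 8 exons), a gene named after its values were seen because its groups overlap. It had 4.04, 9.21 and 23.9 CPM in chimpanzee and 0.433, 0.979 and 4.27 CPM in rhesus macaque (log2 fold change 3.15, standard error 0.58, edgeR adjusted p = 0.000528). One rhesus macaque line, replicate 1 at 4.27 CPM, lay above the lowest chimpanzee line. The gene held 194 counts in chimpanzee and 19 in rhesus macaque. It needed its chimpanzee libraries to pass the filter on low counts, so its difference is partly set by the filter. At 62.673 Mb another gene was higher at 12.7 ± 4.83 against 4.38 ± 1.72 CPM (SD, n = 6 each; log2 fold change 1.56, edgeR adjusted p = 0.00426).

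**Figure D3:**
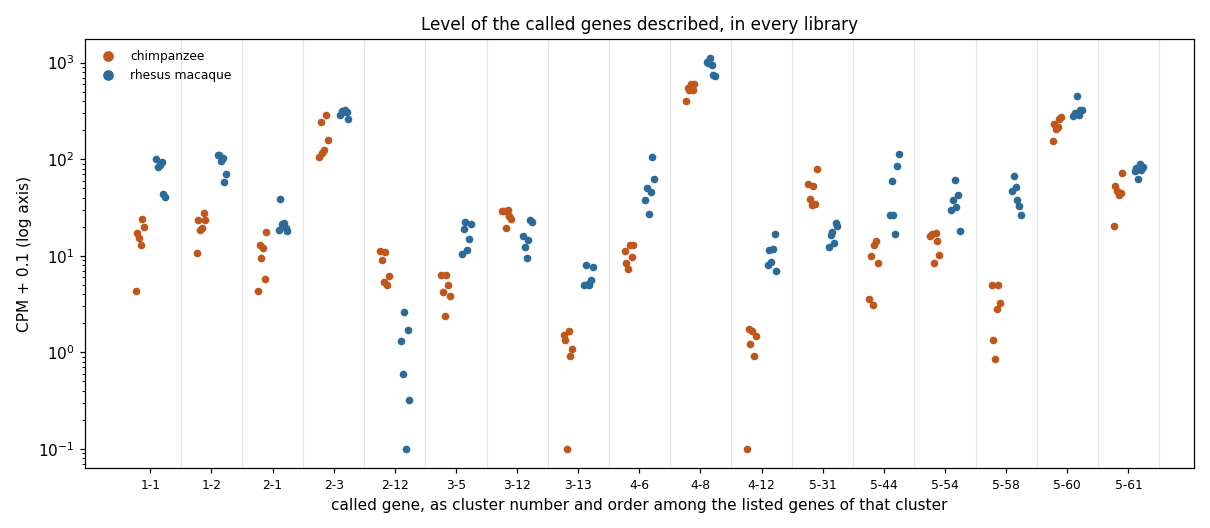
Level of the called genes chosen by the naming rule in each of the 12 libraries (vertical axis, CPM plus 0.1 on a log axis), labelled on the horizontal axis by cluster and by order among that cluster's listed genes. Points are libraries, orange for chimpanzee and blue for rhesus macaque. The species do not overlap in 14 of the 17 genes, with chimpanzee above in 2 of them (2-12 and 5-31). The naming rule picks genes for lack of overlap, so this count follows from the choice of genes.

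The share of a library's counts taken by a whole cluster gives a second view, described without a test. All 136 genes took 0.294% ± 0.0359 of a chimpanzee library and 0.386% ± 0.0391 of a rhesus macaque library (SD, n = 6 each), and the 2 ranges did not overlap. Cluster 1 took 0.0165% ± 0.00296 and 0.0335% ± 0.0118, and cluster 4 took 0.0684% ± 0.00955 and 0.110% ± 0.00680, each without overlap. Cluster 2 (0.0571% and 0.0612%), cluster 3 (0.0148% and 0.0129%) and cluster 5 (0.137% and 0.169%) overlapped. The other chromosome 19 genes took 6.56% ± 1.38 and 9.09% ± 1.04, so as a share of chromosome 19 counts the clusters took 4.40% ± 0.775 in chimpanzee against 4.11% ± 0.544, with overlap. A few abundant genes made up much of these sums: the gene at 57.397 Mb gave 78.8% of the counts of cluster 4 and 2 genes gave 86.1% of those of cluster 2.

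**Figure D4:**
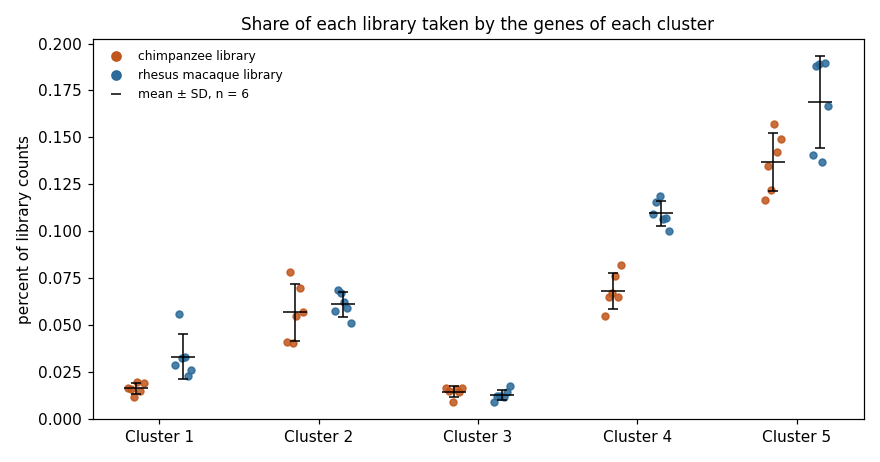
Percent of each library's counts (vertical axis) assigned to the genes of each of the 5 clusters. Each point is 1 library, orange for chimpanzee and blue for rhesus macaque, and black marks give the mean and SD of 6 libraries; the species are apart in clusters 1 and 4 and overlap in clusters 2, 3 and 5.

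Lines of one species also differed from each other, and members with and without a long exon then moved apart. Each gene's log2 CPM was set against its mean over the 6 lines of the same species, so the species difference plays no part. In chimpanzee replicate 1 the other chromosome 19 genes had a median deviation of -0.71, and 490 of 567 lay below the species mean. The members without a long exon deviated there by -0.61, with 15 of 16 below. The 55 members with a long exon deviated by 0.34 the other way, with 15 below. Rhesus macaque replicates 5 and 6 showed the same order, with medians of -0.27 and -0.26 in other chromosome 19 genes, -0.27 and -0.37 in members without a long exon, and 0.16 and 0.09 in members with one. Without these 3 libraries 8 members were higher and 21 lower, and the medians of the 16 and 56 members tested without and with a long exon were -0.93 and 0.06.

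Chimpanzee replicates 3 and 4 stood apart in the members. In replicate 3, 58 of the 71 lay below the species mean, all 10 of cluster 3 among them, with a median deviation of -0.44, while the other chromosome 19 genes deviated by -0.05. In replicate 4, 14 of the 71 lay below, with a median of 0.34 against 0.07. Medians of replicates 3 and 4 had these signs in all 5 clusters. Without replicate 3, 10 members were higher and 21 lower, and without replicate 4 the counts were 6 and 24.

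**Figure D5:**
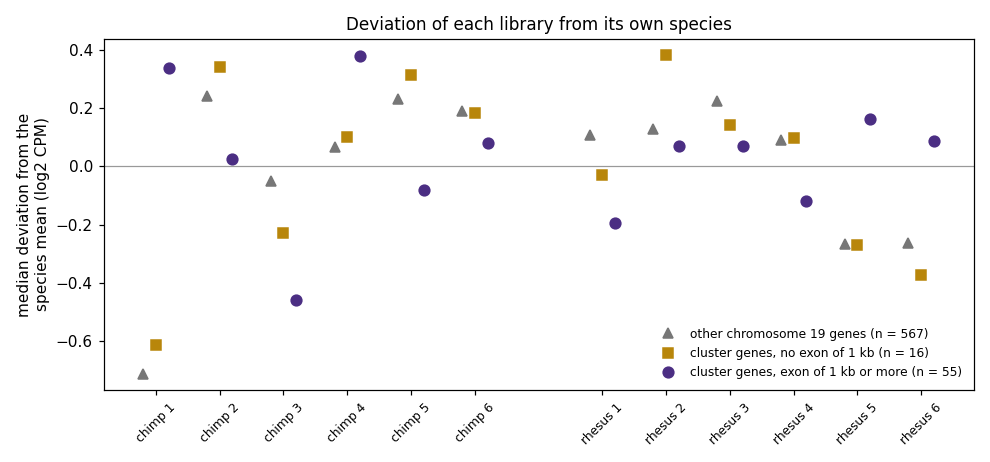
Median deviation of each library from the mean of its own species (vertical axis, log2 CPM) for the 567 other chromosome 19 genes (triangles), the 16 cluster genes without an exon of 1 kb (squares) and the 55 with one (circles). In chimpanzee replicate 1 and rhesus macaque replicates 5 and 6 the squares lie with the triangles below 0 and the circles above 0.

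The spread between lines was near that of other genes. The median SD of log2 CPM in tested members was 0.53 in chimpanzee and 0.46 in rhesus macaque, against 0.55 and 0.44 in other chromosome 19 genes. The widest spread lay in rhesus macaque. The gene at 63.433 Mb (63432646 to 63466822) had an SD of 1.83 there and 0.56 in chimpanzee. Its rhesus macaque libraries 1 to 6 held 1.22, 28.6, 3.49, 0.970, 26.7 and 3.03 CPM, so replicates 2 and 5 lay within the chimpanzee range of 15.7 to 39.1 CPM and the other 4 far below it. The gene at 63.144 Mb (63144018 to 63147240) had 4.88, 14.3, 0.499, 0.970, 16.6 and 5.19 CPM in rhesus macaque replicates 1 to 6 and 10.9 to 22.3 CPM in chimpanzee. Replicates 2 and 5 were again the highest. The gene at 11.548 Mb, described above, had an SD of 1.68 in rhesus macaque, against 1.58 at 63.144 Mb. Its highest libraries there were replicates 2 and 6, at 264 and 59.3 CPM. Neither the gene at 63.433 Mb nor that at 63.144 Mb passed the species test (edgeR adjusted p = 0.128 and 0.106). Both were named after their spread was seen.

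The share of a gene's counts in each of its exons was then compared between the species. Of 66 members with at least 2 exons of enough counts, 4 (6.06%) held an exon whose share differed (edgeR diffSpliceDGE, Simes method, adjusted p under 0.05), against 4.46% of all 9970 genes tested, a share near the background. The count moved to 11 with the gene-level F test, to 1 with exons of at least 50 counts and to 0 with males only. The share of all genes called under those settings is not given here. On simulated counts the Simes test called 0% of 2-fold, 19.4% of 4-fold and 57.6% of 8-fold exon changes, so differences could be missed. In all 4 members called, the called exon was the listed exon with the highest coordinates, and its share was higher in chimpanzee. Strand is not given in the files, so whether that end is the start or the end of the gene was not settled.

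The strongest call was at 63.765 Mb (63765097 to 63776754, 4 exons), a gene also lower in chimpanzee as a whole at 46.3 ± 16.4 against 77.6 ± 8.66 CPM (SD, n = 6 each; log2 fold change -0.74, edgeR adjusted p = 0.021). That call was lost on the scale set by the other chromosome 19 genes (-0.21, edgeR adjusted p = 0.443), without the strongest exon (-0.10, edgeR adjusted p = 0.81) and with males only (-0.93, edgeR adjusted p = 0.0842). Its exon from 63776552 to 63776754 took between 5.41% and 9.09% of the gene's counts in chimpanzee and between 0% and 1.64% in rhesus macaque, from 56 and 5 counts (edgeR exon adjusted p = 1.99e-05). At 63.612 Mb the exon from 63656875 to 63657001 took 11.5% ± 5.09 in chimpanzee against 0.728% ± 0.587 (SD, n = 6 each; edgeR exon adjusted p = 0.00128). At 49.109 Mb the exon from 49130916 to 49131251 took 4.24% ± 1.44 in chimpanzee (SD, n = 6). In rhesus macaque it had 0 of 578 counts, so the share could be up to 0.519% (exon adjusted p = 0.00312 by edgeR). That gene's level did not pass the species test. In ENSG00000083807 the exon from 63713900 to 63714109 rested on 6 chimpanzee and 4 rhesus macaque counts (edgeR exon adjusted p = 0.0274).

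The remaining 65 members did not pass the filter for the test, which asks for enough counts in at least 6 libraries. Together they held 2.54% of the clusters' counts. Of these members, 51 had no listed exon of 1 kb. Means of 39 were higher in chimpanzee and of 26 in rhesus macaque, 9 had no count in rhesus macaque and 2 none in chimpanzee. Over all 7463 untested genes, means of 3590 were higher in chimpanzee and of 3873 in rhesus macaque. Of those genes, 1224 had no count in rhesus macaque and 1377 none in chimpanzee, so a member without rhesus macaque counts is not unusual. The fullest of the 9 lies at 12.085 Mb (12084506 to 12085531), with 25 counts spread over all 6 chimpanzee libraries. At 20.923 Mb (20923390 to 20925341, 1 exon of 1952 bases), 150 counts fell in chimpanzee and 8 in rhesus macaque, 8.26 ± 6.16 against 0.351 ± 0.437 CPM (SD, n = 6 each), with every chimpanzee library above every rhesus macaque library. At 57.531 Mb more counts fell in rhesus macaque, 198 against 25 in chimpanzee. There the groups overlapped, with rhesus macaque replicate 1 at 3.05 CPM below chimpanzee replicate 5 at 3.23 CPM. These genes are given as counts with no test. Reads shared between close copies could move counts between members, with the rule for assigning such reads not given in the sources used here.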

How the data were processed

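Per the labels' protocols, RNA was extracted with a Qiagen kit and sequenced on an Illumina GAII, with no step that marks strand. The authors deposited raw read counts per exon, 1 file per library, listing only exons with at least 1 count, and absent exons were taken as 0. The reads were aligned and counted by tools, and on a genome build and orthology rules, not given in the sources used here. Exon counts were summed per gene identifier. Species were compared by quasi-likelihood F tests in edgeR 4.0.16, with limma 3.58.1 under R 4.3.3, on all 12 libraries, with TMM scaling, species as the only term, genes kept at a minimum count of 10 and a minimum total of 15 by the default filter, and Benjamini-Hochberg adjustment over all tested genes. CPM values use TMM-scaled library sizes, and log2 CPM a prior count of 2. Exon usage was compared by diffSpliceDGE, keeping exons of 10 counts or more. DESeq2 1.42.0 was run as an alternative, beside other scalings, filters, exon sets, thinned counts, males only and each library left out. The tests were first tried on simulated counts. Intervals and limits on shares cover counting error only, since reads carry no molecular identifiers.

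Genes named are, per cluster and direction, the 3 largest called differences without overlap between species and with at least 2 CPM in the higher species, the 2 genes of highest mean CPM and the strongest exon usage call; no gene met the further rule of 0 counts in one species and at least 30 in the other. Other genes described were chosen after their values were seen. The members, lists and tests were chosen with earlier results of these data known. Exons of 2 members, at 63.18 and 63.205 Mb, overlap each other. No 2 libraries of a species agreed within counting noise (lowest chi-square per degree of freedom 14.3). Replicate numbers follow the order of the records. Each library is a separate individual. Human lines named in the study design were not analysed here.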

Additional observations from a re-analysis of the deposited data

Results flagged for a closer look

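The values of 6 lines per species were checked for a line far from the other 5, over 56 groups of values, and 5 stood out; chance gives about 1 in 20. Rhesus macaque replicate 2 took 0.0562% of its counts in cluster 1, where the next library took 0.0333%. Chimpanzee replicate 3 took 0.00901% in cluster 3, below the next at 0.0146%. For single genes, rhesus macaque replicate 2 held 38.5 CPM at 19.598 Mb (next 21.7 CPM), rhesus macaque replicate 6 held 52.6 CPM at 49.109 Mb (next 29.6 CPM), and rhesus macaque replicate 3 held 455 CPM at 63.755 Mb (next 322 CPM).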

How the results depend on the processing

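Scaling on other chromosome 19 genes gave 20 members higher and 10 lower, 6 calls in cluster 3, and medians of 0.39 in members and -0.049 in other chromosome 19 genes; log2 fold changes at 58.262, 63.751 and 63.755 Mb turned to 0.14, 0.34 and 0.038. Without a filter on low counts 15 members were higher, and clusters 1 and 4 had 8 and 6 calls. Without the strongest exon, which left 20 members to test, 1 was higher and 9 lower, the median was -0.56, and clusters 2, 3, 4 and 5 had 1, 1, 1 and 4 calls. Thinned to the smallest library, cluster 2 had 3 calls. With males only, 3 chimpanzee and 4 rhesus macaque lines, 4 members were higher and 13 lower, with 2, 3 and 6 calls in clusters 1, 2 and 5. Beyond 2-fold there were 3 higher and 9 lower, with 1 and 4 calls in clusters 2 and 5. The share of all tested genes called moved too. It was 36.7% without the filter (136 members tested), 46.5% without the strongest exon and 44.9% with thinned counts. With males only (72 members tested) it was 28.8%, and beyond 2-fold 17.3%. RLE size factors, DESeq2's Wald test, sex as a term, exons seen in 3 libraries of each species, and the fit without 3 libraries kept the counts of members called higher and lower within 1.5 times of those reported.

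Leaving out 1 library gave between 6 and 10 members higher and between 19 and 24 lower. Calls ranged from 4 to 5 in cluster 1, 4 to 5 in cluster 2, 2 to 3 in cluster 3, 3 to 5 in cluster 4 (5 without chimpanzee replicate 3 or rhesus macaque replicate 1) and 13 to 17 in cluster 5; medians ranged from -0.29 to -0.16 in members and from -0.70 to -0.55 in other chromosome 19 genes. Exon usage was called for 3 to 4 members, for 11 by the gene-level F test, 1 on exons with at least 50 counts and 0 with males only. As a share of chromosome 19 counts, the mean log2 difference in share was -0.48, 0.35, 0.68, -0.20 and 0.20 in clusters 1 to 5 and 0.094 in all, against -0.97, -0.14, 0.19, -0.69, -0.29 and -0.40 of library counts. With the long exon set at 500 or 1500 bases, 8 of 12 and 15 of 26 members below it were lower, and 14 of 59 and 7 of 45 at or above it, thresholds chosen after the data were seen. Where a result changed, the cause was not tested, except that fewer members or libraries were tested where stated. No paired analysis was possible, since each library is a separate individual and no chimpanzee line has a partner among the rhesus macaque lines. The median standard error of a log2 fold change was 0.32 in members and 0.29 over all tested genes.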
